A study of Mus musculus with 18 samples.

Results

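The secreted frizzled-related proteins are a family of 5 mouse genes, Sfrp1, Sfrp2, Frzb (also called Sfrp3), Sfrp4 and Sfrp5, which were taken by symbol from a table of 43346 genes. All 5 were found. In build mm10 the table places Sfrp1 (ENSMUSG00000031548) at chr8:23411502-23449632, Sfrp2 (ENSMUSG00000027996) at chr3:83766321-83774316, Frzb (ENSMUSG00000027004) at chr2:80411970-80447625, Sfrp4 (ENSMUSG00000021319) at chr13:19623175-19632821 and Sfrp5 (ENSMUSG00000018822) at chr19:42197971-42202252. RNA had been sequenced from 6 samples of MC3T3-E1 subclone 4, a clonal line of pre-osteoblasts from mouse calvaria (labelled C57BL/6, passage 9), after 3 days in osteogenic medium. Of these samples 3 had received 0.25% DMSO as vehicle, and 3 had received 2.5 µM EPZ6438, an inhibitor of EZH2, the enzyme that writes the repressive mark H3K27me3. The sources used here do not say whether the EPZ6438 arm held DMSO as well, and all samples are of 1 clonal line, so other osteoblasts were not sampled. For H3K27me3 and for H3K4me3, which marks gene starts, 1 merged peak list per arm was used.

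Frizzled receptors bind Wnt ligands through a cysteine-rich domain outside the cell. Secreted frizzled-related proteins carry a similar domain but no membrane anchor, so they can bind Wnt ligands away from the receptor, and they end in a netrin-like domain. In bone they are known mainly as brakes on Wnt-driven bone formation, and loss of SFRP4 in humans causes Pyle disease, in which bone cortex is thin.

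RefSeq promoters (250 bases before to 50 after the start, build GRCm38.p6, the assembly behind mm10) were at hand for 3 of the 5 members, Sfrp2, Frzb and Sfrp5. They are shown because each met the peak lists in a different way. Capitals mark the bases inside a peak, which for Frzb is a peak of the EPZ6438 H3K4me3 list and for Sfrp5 a peak of the DMSO H3K27me3 list. The Sfrp2 promoter held no peak of any list. The sequences run 5′ to 3′ on the gene's strand, from chr3:83766071-83766370 (plus strand) for Sfrp2, chr2:80447347-80447646 (minus strand) for Frzb and chr19:42202203-42202502 (minus strand) for Sfrp5.
Sfrp2: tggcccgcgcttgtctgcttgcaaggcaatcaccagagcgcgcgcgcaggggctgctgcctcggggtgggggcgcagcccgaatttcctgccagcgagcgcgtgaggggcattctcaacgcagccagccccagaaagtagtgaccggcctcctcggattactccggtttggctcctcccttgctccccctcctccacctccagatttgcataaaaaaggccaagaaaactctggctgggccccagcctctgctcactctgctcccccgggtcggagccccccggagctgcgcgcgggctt
Frzb: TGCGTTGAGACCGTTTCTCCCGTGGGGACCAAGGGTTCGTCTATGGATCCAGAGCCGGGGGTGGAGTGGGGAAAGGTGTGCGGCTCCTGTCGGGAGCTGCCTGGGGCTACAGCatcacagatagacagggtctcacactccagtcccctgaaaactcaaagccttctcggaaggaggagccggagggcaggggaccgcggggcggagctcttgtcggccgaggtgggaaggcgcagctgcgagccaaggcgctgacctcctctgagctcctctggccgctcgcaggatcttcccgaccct
Sfrp5: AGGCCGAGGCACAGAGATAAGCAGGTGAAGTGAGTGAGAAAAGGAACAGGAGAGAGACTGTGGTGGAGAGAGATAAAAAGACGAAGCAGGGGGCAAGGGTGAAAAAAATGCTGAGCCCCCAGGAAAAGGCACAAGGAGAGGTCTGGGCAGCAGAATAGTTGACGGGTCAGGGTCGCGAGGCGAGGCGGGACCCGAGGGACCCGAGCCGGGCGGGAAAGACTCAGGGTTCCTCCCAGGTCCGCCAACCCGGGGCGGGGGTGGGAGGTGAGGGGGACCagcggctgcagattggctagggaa

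All 3 promoters held more CG dinucleotides than the median promoter. There were 22 in Sfrp2, 20 in Frzb and 15 in Sfrp5, against a median of 7 over 27025 promoters of the same length. Of all promoters, 76.7% had fewer than Sfrp2, 73.2% fewer than Frzb and 64.8% fewer than Sfrp5. GC content was 66% in Sfrp2, 64.7% in Frzb and 61.3% in Sfrp5, where the median promoter had 52.7%. Short motifs were searched on both strands. The TATA box (TATAAA, in 14.2% of all promoters) matched none of the 3. The GC box (GGGCGG, in 35.9%) matched 1 time in Frzb and 2 times in Sfrp5. A core of TCF/LEF sites (CTTTGA, in 16.2%) matched 1 time in Frzb and in neither of the others. A core of RUNX sites (ACCACA, in 16.9%) and the CCAAT box (CCAAT, in 37.9%) each matched 1 time in Sfrp5 alone. A match is a description of the sequence only.

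Sfrp2 made up nearly all of the family's RNA. Levels are given as RPKM, reads scaled to gene length and to the reads of the library in genes, which allows genes of different length to be compared. Sfrp2 accounted for 99.9% to 100% of the summed RPKM of the family in each DMSO library and for 98.8% to 99.4% in each EPZ6438 library. By mean RPKM it ranked 495 of 14213 tested genes in DMSO and 918 in EPZ6438. In DMSO the order of mean levels was Sfrp2, Sfrp1, Sfrp4, Frzb and Sfrp5, and in EPZ6438 it was Sfrp2, Frzb, Sfrp1, Sfrp4 and Sfrp5. Sfrp1 and Sfrp4 overlapped in both arms, and in DMSO Frzb overlapped with each of them. In EPZ6438 the libraries of Frzb all lay above those of Sfrp1.

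**Figure D1:**
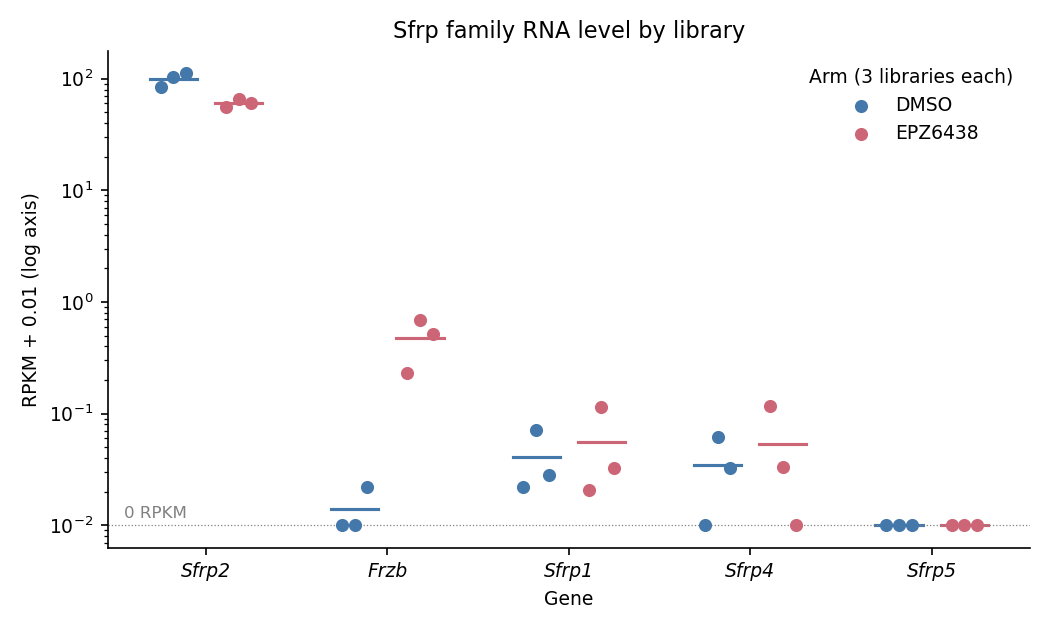
RNA level of the 5 members in each library (vertical axis, RPKM + 0.01 on a log axis); each point is 1 library, the short lines are the means of 3 libraries, blue is DMSO and red is EPZ6438. Sfrp2 lies far above the others in both arms, Frzb is off the baseline in all 3 EPZ6438 libraries, and Sfrp5 is at 0 throughout.

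Sfrp2 fell under EPZ6438. This member binds Wnt ligands and is made by many mesenchymal cells. Its level was 84.7, 104 and 112 RPKM in the DMSO libraries and 55.8, 65.9 and 60.6 RPKM in the EPZ6438 libraries. Every EPZ6438 library lay below every DMSO library. The mean went from 100.2 ± 14.0 to 60.8 ± 5.09 RPKM (SD, n = 3 each), a log2 change of RPKM + 0.1 of -0.71 (SE 0.12, limma adjusted p = 0.0159), or 1.64-fold lower. These are bulk samples, in which fewer cells making a transcript and less of it per cell cannot be told apart. Counts behind the values were high, from 2528 to 6101 reads per library. The limma adjusted p was 0.0882 when DMSO library 2 was left out, 0.0664 when EPZ6438 library 1 was and 0.0766 when EPZ6438 library 3 was, each of which ended the call. Over all alternatives it ran from 0.00487 to 0.0882.

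Sfrp2 shares its far end with Gm26771, an antisense gene of the table, at chromosome 3, 83773853 to 83789956. How counting treated strand is not known here, so reads of the shared stretch could be assigned to either gene. Gm26771 held 171 reads over the 3 DMSO libraries and 85 over the 3 EPZ6438 libraries, against 14524 and 8572 for Sfrp2. Its level was 2.38 ± 0.260 and 1.18 ± 0.404 RPKM (limma adjusted p = 0.0657), which did not pass. It is named after its values were seen.

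Frzb rose from near 0 to a low but measurable level. Frzb is an antagonist best known from cartilage. It had 0, 0 and 1 reads in the DMSO libraries and 15, 53 and 33 reads in the EPZ6438 libraries. In RPKM this was 0, 0 and 0.0122 in DMSO and 0.220, 0.678 and 0.509 in EPZ6438, so the arms did not overlap. The log2 change of RPKM + 0.1 was 2.36 (SE 0.34, limma adjusted p = 0.00842). A floor of 3 reads stood at 0.0365 to 0.0493 RPKM for this gene, and all DMSO libraries were below it. Reads pooled over the libraries of an arm and scaled to their totals were 103 times as high in EPZ6438, with an exact binomial 95% interval of 18.0 to 4102 that covers counting error only. The size of the log2 change depended on the pseudocount, at 5.06 with 0.01 RPKM, 0.91 with 0.5 RPKM and 0.54 with 1 RPKM, and was 5.43 by voom on recovered reads. Frzb passed the filter on low counts (at least 10 reads in at least 3 libraries) only through its EPZ6438 libraries.

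Such a step from at most 1 read in all DMSO libraries to at least 10 reads in each EPZ6438 library was seen in 9 genes of the whole table, 8 of them protein coding, Frzb included. This criterion was set after the values of Frzb were seen.

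Sfrp1 and Sfrp4 stayed at trace levels in both arms. Sfrp1, a Wnt antagonist that restrains bone formation in adult mice, had 1, 6 and 2 reads in DMSO and 1, 11 and 2 reads in EPZ6438. Its RPKM was 0.0122, 0.0617 and 0.0180 in DMSO and 0.0109, 0.104 and 0.0228 in EPZ6438. Replicate 2 was the highest library in each arm, and the arms overlapped. The ratio of pooled, scaled reads was 1.58 (exact 95% interval 0.639 to 4.15, counting error only). The difference on log2(RPKM + 0.1) was 0.13 with an exact two-sided permutation p = 0.7, where 3 against 3 cannot go below 0.1.

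Sfrp4, the member behind Pyle disease, had 0, 2 and 1 reads in DMSO and 4, 1 and 0 reads in EPZ6438. Its RPKM was 0, 0.0512 and 0.0224 in DMSO and 0.108, 0.0236 and 0 in EPZ6438. Of the 6 libraries, only EPZ6438 replicate 1 had more than 3 reads, so no ratio is given. The exact permutation p was 0.7. Sfrp5, an antagonist known from fat tissue and gut endoderm, had 0 reads in all 6 libraries, which allows at most 0.0622 to 0.0839 RPKM per library at a floor of 3 reads. The same floor stood at 0.0270 to 0.0365 RPKM for Sfrp1 and at 0.0673 to 0.0908 RPKM for Sfrp4. A change of Sfrp1, Sfrp4 or Sfrp5 below the gene's own floor was not detectable at this depth.

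Of the 5 members 2 passed the filter, Frzb only through its EPZ6438 libraries, so its call gives no support to a count over the family. Sfrp2 was called lower and Frzb higher, where 3.8% of tested genes were called higher and 3.24% lower (7.04% in either direction). The arms of these 2 genes did not overlap, which held for 26.7% of tested genes. Since Sfrp2 carries the family's RNA, the summed RPKM followed it. The sum was 84.7, 104 and 112 RPKM in DMSO and 56.1, 66.8 and 61.2 RPKM in EPZ6438 (log2 difference -0.70, exact permutation p = 0.1, the smallest 3 against 3 can give). Without Sfrp2 the sum of the other 4 members was 0.0122, 0.113 and 0.0526 RPKM in DMSO and 0.339, 0.806 and 0.532 RPKM in EPZ6438 (log2 difference 2.04, exact permutation p = 0.1). In EPZ6438 most of this sum was Frzb, at 0.220, 0.678 and 0.509 RPKM, so it is no separate result on the rest of the family. There were 4 permutation tests in all, with Benjamini-Hochberg adjusted values of 0.2 for both sums and 0.7 for Sfrp1 and Sfrp4.

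In DMSO, H3K27me3 peaks were listed near every member but Sfrp2, at 10 kb on each side of the gene; at 50 kb, 1 was listed for Sfrp2 as well. Within the gene plus 10 kb on each side, the DMSO list held 13 peaks for Frzb, 8 for Sfrp1, 6 for Sfrp5, 2 for Sfrp4 and 0 for Sfrp2. So 4 of 5 members had such a peak, against 64.1% of 22019 protein-coding genes, a share near the members' own. Of protein-coding genes with a mean under 0.1 RPKM in DMSO, 71.8% had one, and of those with a mean of at least 50 RPKM, 45.1%. Peaks covered 13.4% of the Frzb window, 10.8% of the Sfrp5 window, 6.84% of the Sfrp1 window and 3.69% of the Sfrp4 window, where the median protein-coding gene had 1.09%. With 1 merged list per arm there are no replicates, so no peak comparison carries a test or an error, and the depth behind the lists is unknown here.

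**Figure D2:**
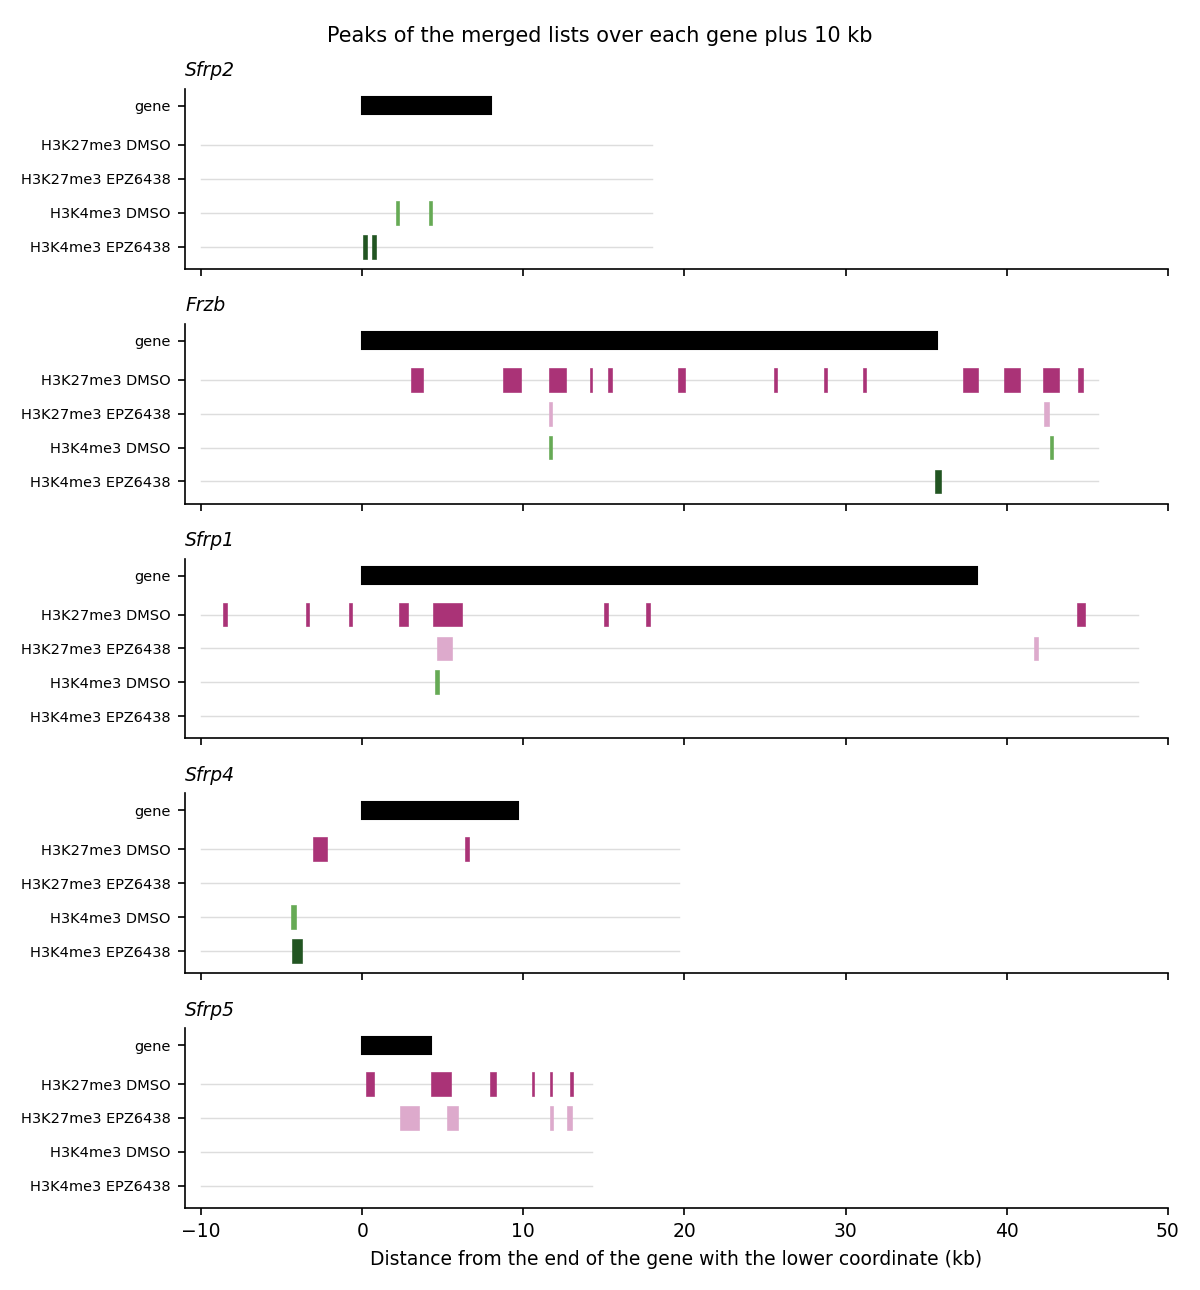
Peaks of the 4 merged lists (colored blocks, 1 row per list) over each member and 10 kb to each side; the horizontal axis is the distance in kb from the end of the gene with the lower coordinate, and the black bar is the gene. Frzb has 13 H3K27me3 peaks in DMSO and 2 in EPZ6438, Sfrp2 has none in either, and Sfrp5 has 6 in DMSO and 4 in EPZ6438.

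Under EPZ6438 the H3K27me3 list held 2 peaks for Frzb, 2 for Sfrp1, 4 for Sfrp5 and 0 for Sfrp4 and Sfrp2. So 3 of 5 members had a peak, against 21.3% of protein-coding genes. Of protein-coding genes with a DMSO peak in the window, 33.0% also had one in EPZ6438. Coverage of the window went from 13.4% to 0.907% for Frzb, from 6.84% to 2.06% for Sfrp1 and from 3.69% to 0% for Sfrp4. The whole list was shorter too, with 143399 peaks over 89.4 Mb in DMSO and 20764 over 11.6 Mb in EPZ6438, and the median gene went from 1.09% to 0%. With peaks of at least 400 bp alone, Frzb had 7 in DMSO and 0 in EPZ6438. Sfrp5 hardly differed, at 10.8% and 9.96%, and 99.2% of protein-coding genes had a lower coverage than Sfrp5 in the EPZ6438 list.

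The Sfrp5 peaks were not all in the same places. In DMSO a peak of 1262 bp (chromosome 19, 42202227 to 42203488) spanned the start of Sfrp5 and 276 bases of the promoter printed above. In EPZ6438 no peak touched that promoter, and the nearest were one of 1234 bp inside the gene (42200288 to 42201521), 731 bp past the start, and one of 687 bp (42203254 to 42203940), 1002 bp before it. The first of these overlapped no DMSO peak, and the second shared 235 bp with the DMSO peak at the start. RNA of Sfrp5 was at 0 reads in both arms.

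At Sfrp1 the widest H3K27me3 peak of DMSO, 1789 bp inside the gene (chromosome 8, 23415914 to 23417702), still had a peak of 981 bp within it in EPZ6438. The same stretch held the only H3K4me3 peak of the Sfrp1 window in DMSO, of 250 bp (23416027 to 23416276), which lay wholly inside the H3K27me3 peak. No H3K4me3 peak was listed for Sfrp1 in EPZ6438. At Frzb both H3K4me3 peaks of DMSO, each 177 bp wide, also overlapped H3K27me3 peaks, by 152 bp inside the gene and by 177 bp outside it. Such overlap was common in DMSO, where 48.0% of all H3K4me3 peaks overlapped an H3K27me3 peak, and rare in EPZ6438, at 0.968%.

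H3K4me3 peaks lay closer to the starts of Frzb and Sfrp2 in the EPZ6438 list than in the DMSO list. For Frzb the EPZ6438 list held 1 peak of 361 bp (chromosome 2, 80447534 to 80447894), 138 to 498 bp before the RefSeq start. It covers the 113 bases in capitals of the Frzb promoter. By the gene positions used for the RNA, Frzb reaches to 80447625 on this side, which lies inside the peak. Neither DMSO peak of Frzb was near, the closer one lying 7251 bp before the RefSeq start. For Sfrp2 the EPZ6438 list held peaks of 245 bp (chromosome 3, 83766387 to 83766631) and 265 bp (83766930 to 83767194), 66 and 609 bp past the start. The DMSO peaks of Sfrp2, of 224 and 217 bp, lay 2083 and 4114 bp past it. Sfrp5 had no H3K4me3 peak in its window in either list.

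Of the 3 members with a RefSeq start, 1 had an H3K27me3 peak within 1 kb of it in each arm, Sfrp5 both times, against 10.8% of 15855 protein-coding genes in DMSO and 2.43% in EPZ6438. Of the same 3, 0 had an H3K4me3 peak within 1 kb of it in DMSO and 2 had one in EPZ6438, against 32.9% and 43.5% of those genes. Among genes with none there in DMSO, 19.4% had one in EPZ6438. Among those with a mean of at least 50 RPKM in DMSO, as Sfrp2 had, 70.0% had a peak there in DMSO and 90.5% in EPZ6438, and of those without one in DMSO 75.1% had one in EPZ6438. The 2 H3K4me3 lists also differed as a whole, with a median peak width of 212 bp in DMSO and 401 bp in EPZ6438, and the part of this in the shift at Frzb and Sfrp2 was not tested. Within the gene plus 10 kb, 4 of 5 members had an H3K4me3 peak in DMSO and 3 of 5 in EPZ6438, against 61.1% and 51.7% of protein-coding genes.

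**Figure D3:**
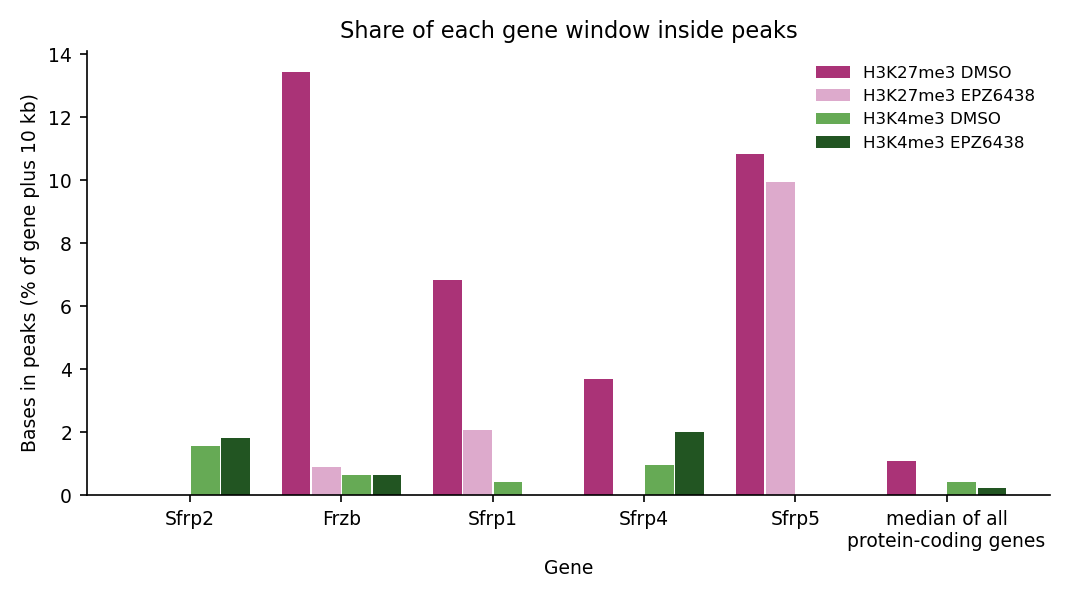
Share of each member's window (gene plus 10 kb on each side) inside peaks of each merged list, in percent, with the median over all protein-coding genes at the right; each bar is 1 merged list, without replicates. H3K27me3 covers 13.4% of the Frzb window in DMSO and 0.907% in EPZ6438, and 10.8% and 9.96% of the Sfrp5 window.

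The H3K4me3 peaks in the Sfrp4 window belonged by position to its neighbor. They lay 4110 bp (287 bp wide, DMSO) and 3754 bp (594 bp wide, EPZ6438) outside Sfrp4. Both were inside the gene Epdr1, 765 and 409 bp from its edge on the side of Sfrp4, an edge 3345 bp from Sfrp4. Epdr1 rose from 16.5 ± 0.605 to 24.3 ± 0.815 RPKM, by 0.56 on the log2 scale with SE 0.07 (limma, adjusted p = 0.00639). Its adjusted p was 0.0556 with DMSO library 2 left out and 0.0507 with EPZ6438 library 3 left out. The DMSO H3K27me3 peak of 878 bp lay in the gap between Epdr1 and Sfrp4, 279 bp from that edge of Epdr1, and was absent from the EPZ6438 list.

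The nearest tested genes on either side of the other members mostly did not pass. Golga7 (log2 change 0.02) and Adam5 (0.07) flank Sfrp1, Dnajc10 (-0.03) and Nckap1 (-0.04) flank Frzb, and Zfyve27 (0.13) and R3hcc1l (-0.05) flank Sfrp5, with adjusted p from 0.641 to 0.946. On the far side of Sfrp4, Gm5446 was at 0.40 (adjusted p = 0.349). Beside Sfrp2, the toll-like receptor gene Tlr2 was at -0.35 (adjusted p = 0.123). Dchs2, a large cadherin 409112 bp away, rose from 0.829 ± 0.131 to 2.29 ± 0.286 RPKM, by 1.37 on the log2 scale with SE 0.17 (limma, adjusted p = 0.00497), opposite in sign to Sfrp2.

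The ligands that these proteins can bind rose in part. Of 19 Wnt ligand genes 9 were tested, and 6 rose and 0 fell in limma, with a median log2 change of 0.85 where all tested genes had -0.03. Over all tested genes limma called 3.8% higher and 3.24% lower. Among the called ligands, Wnt11 had 8, 2 and 5 reads in DMSO and 17, 35 and 34 reads in EPZ6438. It passed the filter on low counts only through its EPZ6438 libraries, so its call gives no support to these counts. At an unadjusted p under 0.05, 7 ligands were higher and 0 lower, and voom called 6 higher and 0 lower, against 20.6% of all tested genes under that unadjusted p and 8.22% called by voom, in either direction. Wnt6 rose from 4.64 ± 0.295 to 9.93 ± 1.28 RPKM, or 2.11-fold (limma, adjusted p = 0.00361). Wnt10b, a ligand that favors osteoblasts over fat cells, rose from 10.8 ± 0.189 to 16.7 ± 0.644 RPKM (log2 change 0.63, SE 0.08). Wnt10a rose from 5.95 ± 1.04 to 10.7 ± 0.202 RPKM (log2 change 0.85, SE 0.14). Leaving out DMSO library 2, or any of the EPZ6438 libraries, took its adjusted p to between 0.0537 and 0.0701. The summed RPKM of all 19 ligands was 25.6 to 29.6 in DMSO, less than the level of Sfrp2 in each library, and 42.9 to 47.9 in EPZ6438.

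Few receptor genes passed. Of 10 Frizzled genes 8 were tested, and Fzd5 alone rose, from 4.19 ± 0.145 to 6.87 ± 0.452 RPKM, by 0.70 on the log2 scale with SE 0.10 (limma, adjusted p = 0.00922). With DMSO library 2, EPZ6438 library 1 or EPZ6438 library 3 left out, its adjusted p was between 0.0504 and 0.0659. At an unadjusted p under 0.05, 1 Frizzled gene was higher and 1 lower, where 20.6% of all tested genes were under it. By voom 1 was called higher and 0 lower. Over all tested genes limma called 3.8% higher and 3.24% lower, and voom called 8.22% in either direction. Of 6 Wnt co-receptor genes 0 passed in limma, 1 was under 0.05 before adjustment and 0 passed by voom, with the most abundant, Ptk7, at 42.8 ± 14.9 and 53.8 ± 7.41 RPKM (log2 change 0.38, limma adjusted p = 0.457).

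Among other Wnt antagonists 7 of 15 were tested, and 4 rose and 2 fell in limma (median log2 change 0.42). Over all tested genes limma called 3.8% higher and 3.24% lower. At an unadjusted p under 0.05, 5 of these antagonists were higher and 2 lower, and voom called 5 higher and 2 lower. Of all tested genes 20.6% were under that unadjusted p and 8.22% were called by voom, in either direction. Wif1, which binds Wnt ligands through another domain, had a log2 change of 2.68 (SE 0.11), Apcdd1, a membrane antagonist, 2.41 (SE 0.17), and Dkk3, a secreted Dickkopf family member, -0.64 (SE 0.07). Frzb rose like Wif1 and Apcdd1, at a level far below theirs of 15.4 ± 1.30 and 7.23 ± 0.743 RPKM in EPZ6438. Sfrp2 fell like Dkk3, which at 82.2 ± 2.20 and 52.8 ± 2.99 RPKM was close to Sfrp2 in level. The 15 other antagonists summed to 118 to 122 RPKM in DMSO and to 113 to 124 RPKM in EPZ6438, so their sums overlapped where the sum of the Sfrp family did not. Changes in both directions lie within these sums, among them the fall of Dkk3, their largest part, and the rises of Wif1 and Apcdd1. Of 13 feedback and target genes of Wnt signaling, 9 were tested, and 5 rose and 0 fell in limma (median 0.66; 8 higher and 0 lower at an unadjusted p under 0.05, 7 and 0 by voom), among them the transcription factor gene Tcf7 (log2 change 1.87, SE 0.07), the ubiquitin ligase gene Rnf43 (1.40, SE 0.14) and the receptor gene Tnfrsf19 (0.93, SE 0.08).

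**Figure D4:**
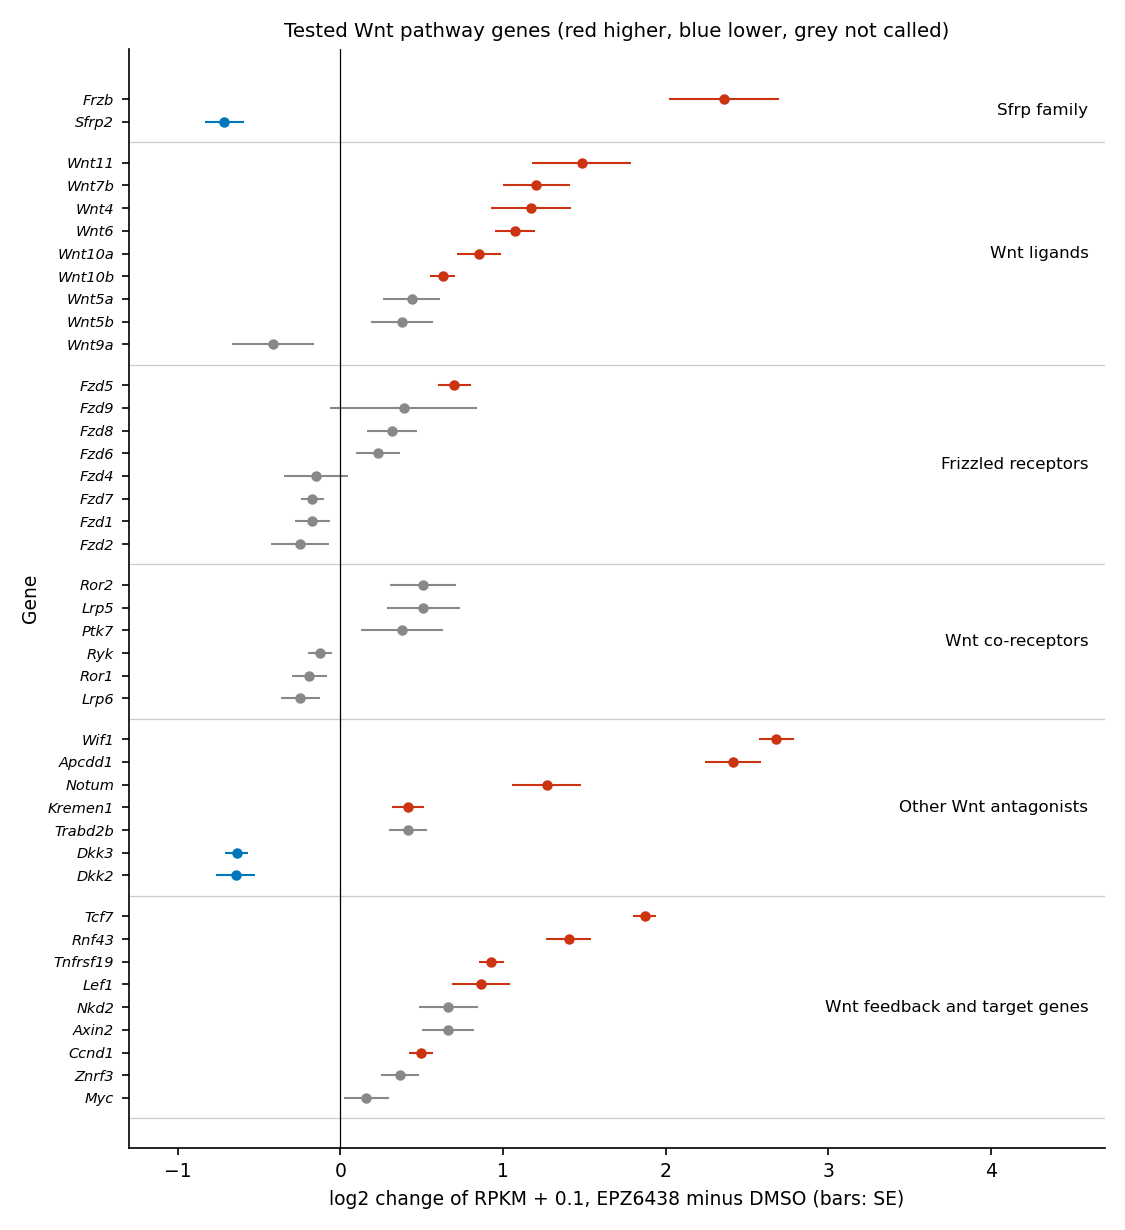
log2 change of RPKM + 0.1 (EPZ6438 minus DMSO, horizontal axis) of each tested gene of the Sfrp family and of 5 Wnt lists; points are estimates from 3 libraries per arm, bars are SE, red is called higher, blue lower and grey not called at an adjusted p of 0.05. Sfrp2 is at -0.71 and Frzb at 2.36, while 6 of 9 tested Wnt ligands are called higher. Frzb and the ligand Wnt11 passed the filter on low counts only through their EPZ6438 libraries.

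Genes that share a domain with the family showed no common direction. The shares over all tested genes were 3.8% called higher and 3.24% lower by limma, and 8.22% called by voom in either direction. Of 6 other genes with a frizzled-type cysteine-rich domain 4 were tested and 0 passed in limma, 1 was under 0.05 before adjustment and 0 passed by voom. The most abundant was Smo, the Hedgehog signal transducer, at 62.3 ± 4.42 and 64.1 ± 2.09 RPKM (log2 change 0.04, limma adjusted p = 0.806). Of 12 other genes with a netrin-like domain 11 were tested, 0 rose and 2 fell in limma and by voom, and at an unadjusted p under 0.05 there were 2 higher and 3 lower, where 20.6% of all tested genes were under it. The called genes were Timp3, an inhibitor of metalloproteinases held in the matrix (47.4 ± 5.93 to 27.2 ± 3.73 RPKM, -0.80 on the log2 scale with SE 0.13, limma, adjusted p = 0.0152), and Timp2 (313 ± 16.1 to 231 ± 18.2 RPKM, -0.44 with SE 0.09, adjusted p = 0.0307). Timp3 lost its call when DMSO library 2, EPZ6438 library 2 or EPZ6438 library 3 was left out, with adjusted p between 0.0527 and 0.0783. Timp2 lost it with no filter on low counts (0.0846) and when DMSO library 2 or any of the EPZ6438 libraries was left out (0.0662 to 0.150). Of the tolloid proteinases, which some Sfrp proteins can bind, Tll1 rose from 2.85 ± 0.111 to 4.69 ± 0.525 RPKM, by 0.69 on the log2 scale with SE 0.12 (limma, adjusted p = 0.0192), 1 of 2 tested. Its adjusted p was between 0.0636 and 0.0837 when DMSO library 2 or any of the EPZ6438 libraries was left out. Of 6 genes for Polycomb repressive complex 2 and H3K27 demethylases 0 passed in limma, 1 was under 0.05 before adjustment and 0 passed by voom. The most abundant, Suz12, had a log2 change of -0.06 (limma adjusted p = 0.867).

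The genes most like Sfrp2 across the 6 libraries, by Pearson's r of log2(RPKM + 0.1) among 12143 genes with a mean of at least 1 RPKM, were Nuak2 and Arhgef25 (both r = 0.999) and Trerf1 (0.998). Nuak2 was called lower (limma, adjusted p = 0.0473), a call lost in 10 of 14 alternatives, with adjusted p from 0.0510 to 0.189 in those. Arhgef25 (adjusted p = 0.0925) and Trerf1 (0.0576) did not pass. Those most like Frzb were Rgs19 (r = 0.995), Tnfrsf21 (0.992) and Wnt6 (0.991). Tnfrsf21 went from 0.710 ± 0.0541 to 1.39 ± 0.192 RPKM (limma adjusted p = 0.0234), a call lost when DMSO library 2, EPZ6438 library 2 or EPZ6438 library 3 was left out (0.0972 to 0.113) and under both other filters (0.0854 and 0.106). Rgs19 did not pass (0.0903). All these points come from the same 2 arms, in which any gene that differs between arms has a high r.

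For the whole series, libraries held 18807156 to 25365513 reads in genes, and 1001 of 14213 tested genes were called. That count was 323 with DMSO library 2 left out, 445, 424 and 359 with EPZ6438 libraries 1, 2 and 3 left out in turn, and 628 with no filter on low counts. Osteoblast markers, 10 in all and each tested, summed to 3438 to 6013 RPKM in DMSO and 5533 to 7350 RPKM in EPZ6438, a sum carried by Col1a1 and Col1a2, which were not called. Of the 10, 6 rose and 1 fell, in limma and by voom alike, where limma called 3.8% of tested genes higher and 3.24% lower. Phospho1 was 5.86-fold, Ibsp 3.05-fold and Sp7 1.88-fold higher. Spp1 was 1.48-fold lower (limma adjusted p = 0.0316), a call lost with no filter, without DMSO library 2 and without any 1 of the EPZ6438 libraries (0.0673 to 0.140). Markers of endothelial cells stayed at or below 0.121 RPKM in sum, those of adipocytes at or below 0.616 RPKM, and those of blood cells (5 of 6 matched) at or below 1.80 RPKM. Skeletal muscle markers summed to 1.34 to 1.82 RPKM in DMSO and to 2.49 to 3.64 RPKM in EPZ6438, with Myod1 and Myog at 0. Of these Des alone was called higher, a call lost in 7 of 14 alternatives (limma adjusted p from 0.0789 to 0.166 there). Of 6 chondrocyte markers 4 were tested and 2 rose, the sum moved from 15.3 to 26.2 RPKM in DMSO to 83.7 to 113 RPKM in EPZ6438, and Acan was at 0 in all libraries. Most of that sum was Col2a1, at 14.6 and 91.0 RPKM, and the other called gene was Col9a1, at 0.00518 and 0.209 RPKM. Col9a1 had 0, 0 and 2 reads in DMSO and 23, 31 and 16 reads in EPZ6438. It passed the filter on low counts only through its EPZ6438 libraries, so its call gives no support to the count. Sox9 (5.72 and 5.07 RPKM, log2 change -0.15) and Comp (log2 change -0.07) were tested and not called (limma adjusted p = 0.642 and 0.939). The called osteoblast markers and Col2a1 thus moved beside the fall of Sfrp2 and the rise of Frzb. So did Des, with an unstable call, and Col9a1, tested only through its EPZ6438 libraries. Their part in either was not tested.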

How the data were processed

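Per the file headers, the authors deposited RPKM per gene and library with gene positions and no strand, and for each mark and arm they deposited 1 peak list of starts and ends without scores, named as merged samples against input. Per the labels, 2 samples stand behind each mark in each arm. The submitters' processing notes name STAR 2.6.1c, Subread, MACS2, HOMER, DiffBind and Picard, and build mm10. No setting, annotation release or counting strand is given in these sources. RPKM times gene length (plus 1 base) was a whole multiple of the value of 1 read for 100% of values (tolerance 0.001), which gave read numbers. These were 18807156 to 25365513 per library.

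Tested genes had at least 10 reads in 3 or more libraries. The test was limma 3.58.1 (R 4.3.3; trend, two-sided) on log2(RPKM + 0.1), a scale that understates changes of low genes, with Benjamini-Hochberg adjustment over all 14213; calls are at an adjusted p under 0.05. The test was checked on simulated reads. No source says that the replicates were separate cultures; p-values then reflect the spread of these samples alone, which may be technical. No 2 libraries of an arm were copies (chi-square per gene between 6.47 and 61.7). Peaks were matched by at least 1 bp with Python 3.11.15, pandas 2.3.3 and numpy 2.4.6, single values were tested by exact permutation, intervals came from scipy 1.17.1, and figures from matplotlib 3.10.9. No source used here mentions molecular identifiers, so reads may not be independent molecules, and intervals and floors cover counting error only.

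The members and the gene lists were chosen with earlier results of these data known. Genes outside the family were named by rule: up to 3 called genes per list by adjusted p, or its most abundant gene; the 3 genes most like each tested member; and the nearest tested gene on each side. Marker genes of cell types, Gm26771, Wnt11 and the markers at 0 lie outside this rule and were named after their values were seen. The 37 genes of chrMT were left out. Alternatives were other filters, pseudocounts, scaling, voom, a replicate block, leaving out each library, and other windows, widths and overlaps of peaks.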

Additional observations from a re-analysis of the deposited data

How the results depend on the processing

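Sfrp2 and Frzb kept their direction in every alternative that tested them. The arms of neither gene overlapped, so leaving out a library or changing the filter, pseudocount or block could not have reversed it. Frzb was not tested among genes with a mean of at least 1 RPKM; since it enters the tests only through its EPZ6438 libraries, its calls elsewhere say nothing about stability. Leaving out 1 library in turn gave Sfrp2 a log2 change from -0.83 to -0.63, with the call lost in 3 of 6 cases, and Frzb one from 2.09 to 2.73. The number of called genes was 628 with no filter and 323 to 978 with 1 library left out. With the replicate number as a block, 1051 genes were called. In this balanced design a block cannot move the log2 changes, which stayed at -0.71 for Sfrp2 and 2.36 for Frzb. The limma adjusted p was then 0.00523 for Sfrp2 (SE 0.087) and 0.00667 for Frzb (SE 0.308). Same-numbered libraries correlated in their deviations from the arm means by 0.41, 0.08 and 0.06 for replicates 1, 2 and 3, and DMSO replicate 3 correlated best with EPZ6438 replicate 2, so the numbers were not taken to pair samples. The log2 difference of the family sum turned from -0.70 to 2.04 once Sfrp2 was left out of it. What remained was mostly Frzb in EPZ6438. With peaks of at least 400 bp, members with an H3K4me3 peak went from 4 to 0 in DMSO and from 3 to 1 in EPZ6438. Members with an H3K27me3 peak in DMSO were 5 of 5 with 50 kb on each side, and those with one in EPZ6438 were 2 with peaks of at least 400 bp. Within 1 kb of the RefSeq start, which 3 members have, 1 had an H3K27me3 peak in each arm and 0 had an H3K4me3 peak in DMSO. Of 433 values of 31 other named genes, 379 kept direction and side of the threshold, 36 lost and 3 gained a call, and 15 changed sign, all of them of genes that were not called. With 1 library left out in turn, Smo ran from -0.0070 to 0.095, Suz12 from -0.19 to 0.088, Golga7 from -0.071 to 0.080, Adam5 from -0.11 to 0.32, Dnajc10 from -0.12 to 0.057, Nckap1 from -0.20 to 0.11 and R3hcc1l from -0.14 to 0.022. Dnajc10 was at 0.00235 under median-of-ratios scaling. Median-of-ratios scaling moved the median of all tested genes from -0.03 to 0.00304. Sfrp1, Sfrp4 and Sfrp5 are limited by depth, at 0 to 11 reads per library.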
